A study of Mus musculus with 6 samples.

Results

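Genome folding was described in unperturbed mouse embryonic stem cells, that is, in the 2 control libraries of a Hi-C series of 6 libraries. Hi-C joins and sequences DNA ends that lie close together in the nucleus, here after digestion with DpnII. The cells were E14TG2a, a wild-type embryonic stem cell line of male origin, grown on gelatin in serum with LIF and used between passages 18 and 26. Both control libraries came from cells transfected with esiRNA, a pool of short interfering RNAs, made from EGFP, a sequence that mouse cells lack, and collected after 48 h. They had therefore gone through lipofection, as had the other libraries, and no untransfected cells were analysed here. The labels put replicate 1 and replicate 2 in different batches and do not say whether they were separate cultures, so the spread between them may be technical. Each library has a deposited map of 8 subcompartments on autosomes 1 to 19, and the control group has 1 list of chromatin loops, recorded with replicate 2 and named as merged, which was taken as pooled from both libraries. The sources used here do not give sequencing depth.

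The mammalian genome is divided into an A compartment, which is open, rich in genes and replicates early, and a B compartment, which is condensed, gene-poor and often lies at the nuclear lamina. Subcompartments refine this division by grouping segments with like contact patterns. In the names used here A.1.1 is the most A-like class and B.2.2 the most B-like, with A.1.2, A.2.1, A.2.2, B.1.1, B.1.2 and B.2.1 between them in that order. Loops are pairs of anchors that touch more often than their surroundings. Many are held by cohesin and CTCF, and in embryonic stem cells others join genes silenced by Polycomb.

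The maps were cut into bins of 50 kb. Of 47816 bins with a label in both control libraries, 32888 carried the same label (68.8%, 1644.4 Mb of 2390.8 Mb), and these agreed bins are the base of what follows. Both libraries gave the same letter, A or B, in 96.2% of the bins and labels at most 1 class apart in 97.2%. Only 102 bins differed by 4 or more of the 8 classes. The end classes were the most repeatable. Of all bins that either library put in A.1.1, 75.3% were in A.1.1 in both, and for B.2.2 the share was 69.4%. For the 6 classes between them it was 37.8% to 50.1%. Most disagreements were therefore steps between neighbouring middle classes. Disagreements went in both directions: replicate 2 was the more A-like in 7075 bins and replicate 1 in 7853.

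The B.2.2 class was the largest, with 21.3% of bins in replicate 1 and 22.8% in replicate 2, then B.2.1 with 17.0% and 17.7%, A.1.1 with 13.4% and 15.0%, B.1.2 with 12.6% and 10.9% and A.1.2 with 10.6% and 10.1%. B.1.1, A.2.1 and A.2.2 each took 6.87% to 9.63%. A as a whole made up 39.5% and 39.7% of the bins of the 2 libraries and 41.3% of agreed bins, in which the end classes weigh more. Differences of 4 or more classes fell in 89 regions, 3 of which held 3 or more genes and were picked for that after their values were seen. They were chr5:91950001-92050000 (B.1.2 and A.1.1, with Rchy1, Odaph and Cdkl2), chr14:40850001-41050000 (B.1.2 and A.1.2, with Sh2d4b, Tspan14 and Prxl2a) and chr17:36800001-36900000 (B.1.2 and A.1.1, with H2-M10.6 and Trim26).

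Sequence at gene starts differed along the scale from B.2.2 to A.1.1, and the promoters below show its ends and its exceptions. Each is the RefSeq window of 250 bases before to 50 bases after the gene's start (build GRCm38, the assembly known as mm10), written 5′ to 3′ on the gene's strand, with every CG dinucleotide in capitals. Tigd3 and Trim21 are shown because they have the median CpG ratio (CG observed over CG expected from base composition) of all promoters in agreed A.1.1 and B.2.2 bins, Olfr178 because it has the median among olfactory receptors in B.2.2, and Sox2 and Nanog because they are core factors of pluripotency with unlike promoters in the same class. Tigd3 lies at chr19:5894079-5894378 on the minus strand, Trim21, an antibody receptor of the cytosol, at chr7:102565433-102565732 on the minus strand, Olfr178 at chr16:58890169-58890468 on the minus strand, Sox2 at chr3:34649745-34650044 on the plus strand and Nanog at chr6:122707239-122707538 on the plus strand.
Tigd3: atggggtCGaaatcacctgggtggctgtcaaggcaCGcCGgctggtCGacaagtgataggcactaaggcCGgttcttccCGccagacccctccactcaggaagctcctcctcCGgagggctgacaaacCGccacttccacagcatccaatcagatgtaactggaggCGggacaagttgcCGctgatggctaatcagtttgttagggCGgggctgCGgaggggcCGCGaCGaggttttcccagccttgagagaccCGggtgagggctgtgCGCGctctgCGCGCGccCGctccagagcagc
Trim21: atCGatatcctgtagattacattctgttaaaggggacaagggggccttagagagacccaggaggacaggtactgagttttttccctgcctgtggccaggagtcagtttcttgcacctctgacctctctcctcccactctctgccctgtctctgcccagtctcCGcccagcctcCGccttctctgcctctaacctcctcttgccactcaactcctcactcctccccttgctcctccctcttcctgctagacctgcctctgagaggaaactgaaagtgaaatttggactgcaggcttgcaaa
Olfr178: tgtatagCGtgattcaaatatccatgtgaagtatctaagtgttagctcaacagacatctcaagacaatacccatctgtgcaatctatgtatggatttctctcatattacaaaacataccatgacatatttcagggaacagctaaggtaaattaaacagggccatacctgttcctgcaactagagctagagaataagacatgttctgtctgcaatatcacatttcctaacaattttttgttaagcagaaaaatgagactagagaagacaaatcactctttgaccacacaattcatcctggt
Sox2: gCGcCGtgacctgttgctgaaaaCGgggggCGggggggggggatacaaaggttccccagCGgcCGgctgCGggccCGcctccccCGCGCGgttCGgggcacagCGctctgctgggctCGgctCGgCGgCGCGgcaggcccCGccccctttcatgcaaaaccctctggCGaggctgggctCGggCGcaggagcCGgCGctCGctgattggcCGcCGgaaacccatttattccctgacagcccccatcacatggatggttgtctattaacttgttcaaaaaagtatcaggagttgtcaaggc
Nanog: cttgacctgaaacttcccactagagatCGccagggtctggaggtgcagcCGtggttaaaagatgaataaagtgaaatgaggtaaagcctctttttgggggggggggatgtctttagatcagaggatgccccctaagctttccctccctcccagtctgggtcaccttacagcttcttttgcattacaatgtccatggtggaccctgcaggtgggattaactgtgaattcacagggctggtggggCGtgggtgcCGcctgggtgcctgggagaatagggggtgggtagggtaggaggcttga
The Tigd3 window holds 22 CG dinucleotides (CpG ratio 0.733), the Trim21 window 3 (0.146) and the Olfr178 window 1 (0.102). Sox2, with 27 CG and a CpG ratio of 0.819, and Nanog, with 4 and 0.192, were both in A.1.1 in both libraries. The CpG ratio of Sox2 was above the median of A.1.1 and that of Nanog between the medians of B.2.2 (0.146) and B.2.1 (0.212).

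Promoters rich in CpG, the usual promoters of housekeeping and developmental genes, rose in share with every class from B to A. Defined by a CpG ratio of at least 0.6 and a GC content of at least 55%, they made up 7.56% of the 847 promoters in B.2.2, 16.7% in B.2.1, 19.7% in B.1.2, 28.0% in B.1.1, 41.0% in A.2.2, 48.3% in A.2.1, 52.8% in A.1.2 and 56.1% of the 5696 in A.1.1. The values of the single libraries were 8.10% and 6.98% in B.2.2 and 55.8% and 56.5% in A.1.1. The TATA sequence TATAAA, searched on both strands of the window, went the other way, from 35.4% of promoters in B.2.2 to 7.97% in A.1.1, against 13.5% of all 16457 autosomal promoters. The GC box GGGCGG was found in 11.5% of promoters in B.2.2 and 60.7% in A.1.1, against 47.3% of all. Olfactory receptors set part of the B.2.2 values. Of their 392 promoters in B.2.2, 0% were CpG-rich and 44.4% held TATAAA, and without olfactory and vomeronasal receptors B.2.2 had 15.4% CpG-rich promoters, 27.4% with TATAAA and 22.6% with GGGCGG. The core motif of CTCF was found in 0.118% to 0.865% of promoters per class and in 0.559% of all, with no steady order. These are matches of letters and do not show binding.

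Protein-coding genes became denser with each class towards A. In agreed bins there were 2.48 genes per Mb in B.2.2, 3.45 in B.2.1, 4.86 in B.1.2, 6.32 in B.1.1, 8.14 in A.2.2, 9.17 in A.2.1, 14.1 in A.1.2 and 24.3 in A.1.1. The spread between the libraries was small beside these steps, with 2.68 ± 0.0261 genes per Mb in B.2.2 and 23.4 ± 0.322 in A.1.1 (mean ± SD, n = 2 libraries). A.1.1 was denser than A.1.2 on 19 of 19 autosomes and A.1.2 denser than A.2.1 on 19 of 19, whereas each of the 5 steps below held on 13 to 15 of 19. The largest steps therefore lay at the A end, within A and not at the border of A and B. Density in A.1.1 was 9.78 times that in B.2.2, or 8.88 and 8.59 times by the single libraries. Without olfactory and vomeronasal receptors, which pack B.2.2 with short genes, it was 18.8 times, and with genes counted in every bin they overlap 5.28 times. A.1.1 held 47.6% of the 14853 genes in agreed bins on 17.7% of the agreed bins, and B.2.2 held 7.21% of the genes on 26.2%.

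**Figure D1:**
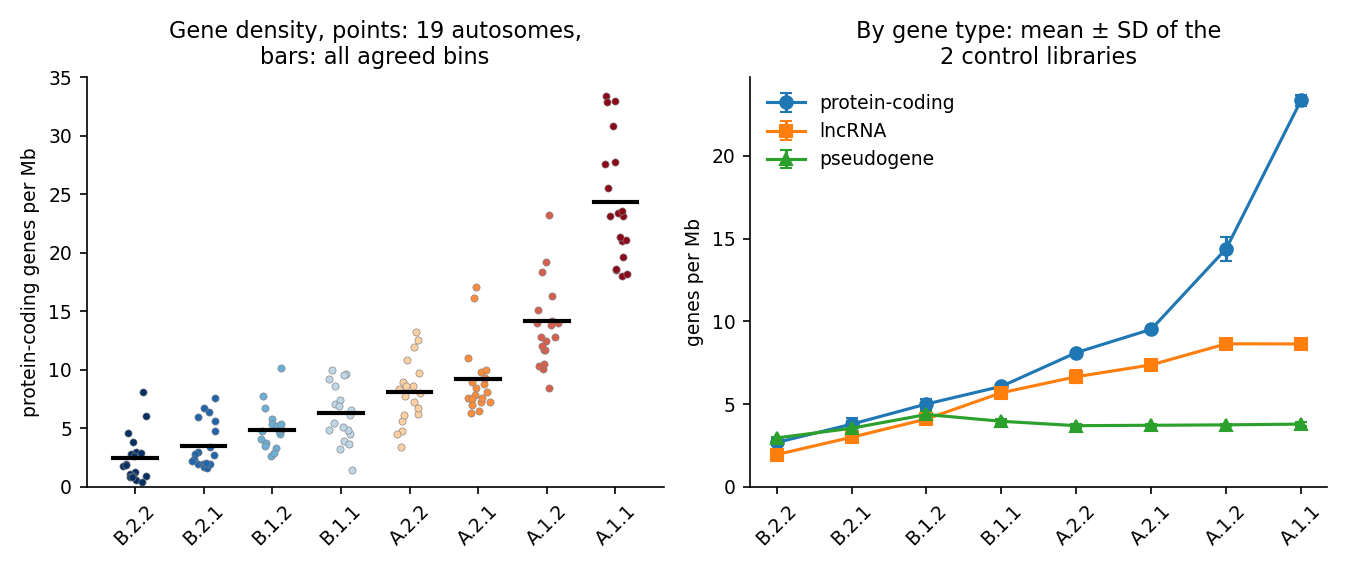
Left: protein-coding genes per Mb of agreed 50 kb bins in each subcompartment, with a point for each of the 19 autosomes and a bar for all autosomes together. Right: genes per Mb by gene type, as the mean and SD of the 2 control libraries; protein-coding genes rise to 23.4 per Mb in A.1.1 while lncRNA genes level off at 8.64 in A.1.2 and 8.63 in A.1.1 and pseudogenes show no such rise.

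Other gene types followed the scale to different degrees. Long noncoding RNA genes rose from 1.88 per Mb in B.2.2 to 8.85 in A.1.2 and did not rise further in A.1.1, with 8.63 in agreed bins. Pseudogenes lay between 2.84 per Mb (B.2.2) and 4.32 per Mb (B.1.2) and were not densest in A. Transfer RNA genes were 54.2 times as dense in A.1.1 as in B.2.2, but a few clusters carried them. On chromosome 13, 68 of 69 tRNA genes in agreed bins were in A.1.1, and on chromosome 6, 48 of 52 were in B.1.1. Genes annotated as microRNA were 10.9 times as dense in A.1.1 as in B.2.2. Of 919 autosomal hairpins with a RefSeq sequence, 700 were in agreed bins, 360 of them in A.1.1.

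Gene length and packing also differed by class. The median protein-coding gene measured 15.1 kb in A.1.1 and 29.4 kb in A.2.1, the longest of the 8 medians. In B.2.2 it was 2.75 kb, and 27.2 kb without olfactory and vomeronasal receptors, so B.2.2 joins very short receptor genes with very long ones. Genes over 500 kb numbered 72 in B.2.2 (6.72% of its genes), 43 in B.2.1, 13 each in B.1.2 and B.1.1, 6 in A.2.2, 8 in A.2.1, 2 in A.1.2 and 1 in A.1.1. No protein-coding gene body touched 69.4% of the bins in B.2.2 and 7.31% of those in A.1.1. Bins with more genes were also labelled alike more often, with 67.9% agreement where no gene midpoint lay, 69.4% with 1 gene, 74.3% with 2 to 4 and 86.3% with 5 or more.

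Segments of B.2.2 were the longest and those of the middle classes the shortest. Replicate 1 had 5102 segments and replicate 2 had 5234, with a median of 350 kb in both. The median was 700 kb for B.2.2 and 400 kb for B.2.1 and A.1.1 in both libraries, and 250 to 350 kb for the other 5 classes. In B.2.2, 59.3% (replicate 1) and 59.0% (replicate 2) of the length lay in segments of 1 Mb or more, in A.1.1 it was 41.0% and 39.0%, and in A.2.2 only 4.23% and 2.40%. No segment was as short as a single bin.

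The longest runs of agreed bins are extremes of their classes, and their gene density often differed from that of the class. Genes per Mb were 0.294 in the B.2.2 run, 0.513 in that of B.2.1, 2.94 in B.1.2 and 16.7 in B.1.1. The classes had 2.48, 3.45, 4.86 and 6.32. In the runs of A.2.2, A.2.1, A.1.2 and A.1.1 there were 7.5, 5.56, 35.3 and 37.0 genes per Mb. Those classes had 8.14, 9.17, 14.1 and 24.3. The longest in B.2.2, 3400 kb at chr4:77450001-80850000, held 1 protein-coding gene, Tyrp1, an enzyme of pigment synthesis. The longest in B.2.1, 1950 kb at chr3:22750001-24700000, also held 1, Naaladl2. In B.1.2 it was 1700 kb at chr4:3950001-5650000 with 5 genes, among them Sdr16c5, Sdr16c6, Gm11780 and Penk, the precursor of enkephalin peptides. In B.1.1 it was 2700 kb at chr14:4750001-7450000 with 45 genes, nearly all of them numbered gene models such as Gm26650, Gm9602, Gm3264 and Gm3278. The longest runs of A.2.2 and A.2.1 were short, 800 kb at chr2:18200001-19000000 with Dnajc1, Commd3, Gm46725 and the Polycomb gene Bmi1 among 6 genes, and 900 kb at chr19:15900001-16800000 with Psat1, Cep78 and the G-protein genes Gnaq and Gna14 among 5. In A.1.2 it was 1500 kb at chr7:19500001-21000000 with 53 genes, beginning with Bloc1s3, Trappc6a, Nkpd1 and Ppp1r37. Vomeronasal receptors of the first type made up 24 of the 53. In A.1.1 it was 3050 kb at chr3:87500001-90550000 with 113 genes, beginning with Etv3, Etv3l, Arhgef11 and Gm6570.

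Neighbouring segments often skipped classes. In replicate 1, 47.5% of adjacent segments were 1 class apart, 25.4% were 2 apart and 13.5% were 3 apart, and in replicate 2 the shares were 45.7%, 26.0% and 13.8%. Of the 1628 and 1684 borders between A and B, only 8.78% and 7.60% joined the innermost classes B.1.1 and A.2.2. Replicate 2 had a border at the same position for 69.5% of those of replicate 1, and within 50 kb for 82.4%. At the 1131 borders shared in position and direction, gene density stepped from 7.32 genes per Mb in the nearest 50 kb on the B side to 14.0 on the A side. On the A side it stayed between 12.8 and 15.9 up to 400 kb from the border, and on the B side it declined to 4.20.

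Pluripotency genes lay in the 2 most A-like classes without exception. All 26 members of the list were in A in both libraries, and 25 had the same class in both, 15 in A.1.1 and 10 in A.1.2. The A.1.1 members were Pou5f1, Sox2, Nanog, Esrrb, Klf2, Klf5, Sall4, Stat3, Tet1, Tfcp2l1, Lin28a, Fgf4, Tdgf1, Dppa3 and Dppa5a, which include the core transcription factors and Stat3, the effector of LIF signalling. The A.1.2 members were Klf4, Tbx3, Nr5a2, Prdm14, Zfp42, Utf1, Tet2, Lifr (a chain of the LIF receptor), Lefty1 and Lefty2. Dppa4 was in A.1.2 in replicate 1 and in A.1.1 in replicate 2. For reference, 76.4% of all protein-coding genes in agreed bins were in A and 47.6% in A.1.1. By single library 71.8% and 72.0% of all genes were in A, and 37.0% and 40.6% in A.1.1, lower than in agreed bins. All 9 genes of the formative and primed states in agreed bins were also in these classes, 8 in A.1.1 (among them Dnmt3a, Dnmt3b and Etv4) and Otx2 in A.1.2. The remaining gene of that list, Fgf5, a marker of the primed state, was in B in both libraries, B.1.1 in replicate 1 and B.1.2 in replicate 2. The genes of the 2-cell-like state lay elsewhere, with 9 of 11 in B, among them Usp17la, Usp17lb and Usp17ld in B.2.2, and Tcstv1 as the highest in A.1.2. Of 9 fibroblast markers in agreed bins, 6 were in B, with Dcn and Lum in B.2.2 and Fn1 and Thy1 in A.1.2. Hi-C gives no transcript levels, so the identity of the cells could not be checked on RNA.

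Chromatin regulators and housekeeping families lay almost wholly in A, and most of their members in agreed bins were in A.1.1. Of all protein-coding genes in agreed bins 76.4% were in A and 47.6% in A.1.1. Smarca4 (chr9:21616106-21704230), the ATPase of the esBAF remodelling complex, and Ino80 (chr2:119373042-119478685), the ATPase of INO80, were in A.1.1 in both libraries. All 15 esBAF subunits and all 15 INO80 subunits were in A in both libraries. Of those in agreed bins, 7 of 11 esBAF subunits were in A.1.1, with Arid1a, Bcl7b and Bcl7c as examples and Bcl11b lowest in A.2.1, and so were 8 of 10 INO80 subunits, with Actr5 and Uchl5 lowest in A.1.2. Of 9 genes of CTCF and cohesin, 6 were in A.1.1, including Ctcf, Esco2 and Mau2, and Stag1 was lowest in A.2.1. By single library A.1.1 held 7 and 11 of 15 esBAF subunits and 8 and 11 of 15 INO80 subunits. It held 7 and 8 of 13 CTCF and cohesin genes, and 37.0% and 40.6% of all genes. All 24 Polycomb genes were in agreed bins and in A, 16 of them in A.1.1, including Cbx6, Cbx7 and Eed, with Bmi1 and Pcgf5 lowest in A.2.2. Of 66 histone genes in agreed bins, 48 were in A.1.1, 17 in A.1.2 and H1f7 in A.2.2. These genes share 18 bins on 4 chromosomes, so they are far fewer than 66 independent positions. Of 64 genes for ribosomal proteins, 63 were in A and 48 in A.1.1, and Rps23 was the exception in B.1.2. Proteasome subunits were in A in 30 of 30 cases and in A.1.1 in 22. Complex I subunits were in A in 25 of 26 (Ndufa6 in B.1.1), translation initiation factors in 40 of 41 (Eif3j2 in B.2.1), and mitochondrial ribosomal proteins in 50 of 56, with Mrpl3 in B.2.2.

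**Figure D2:**
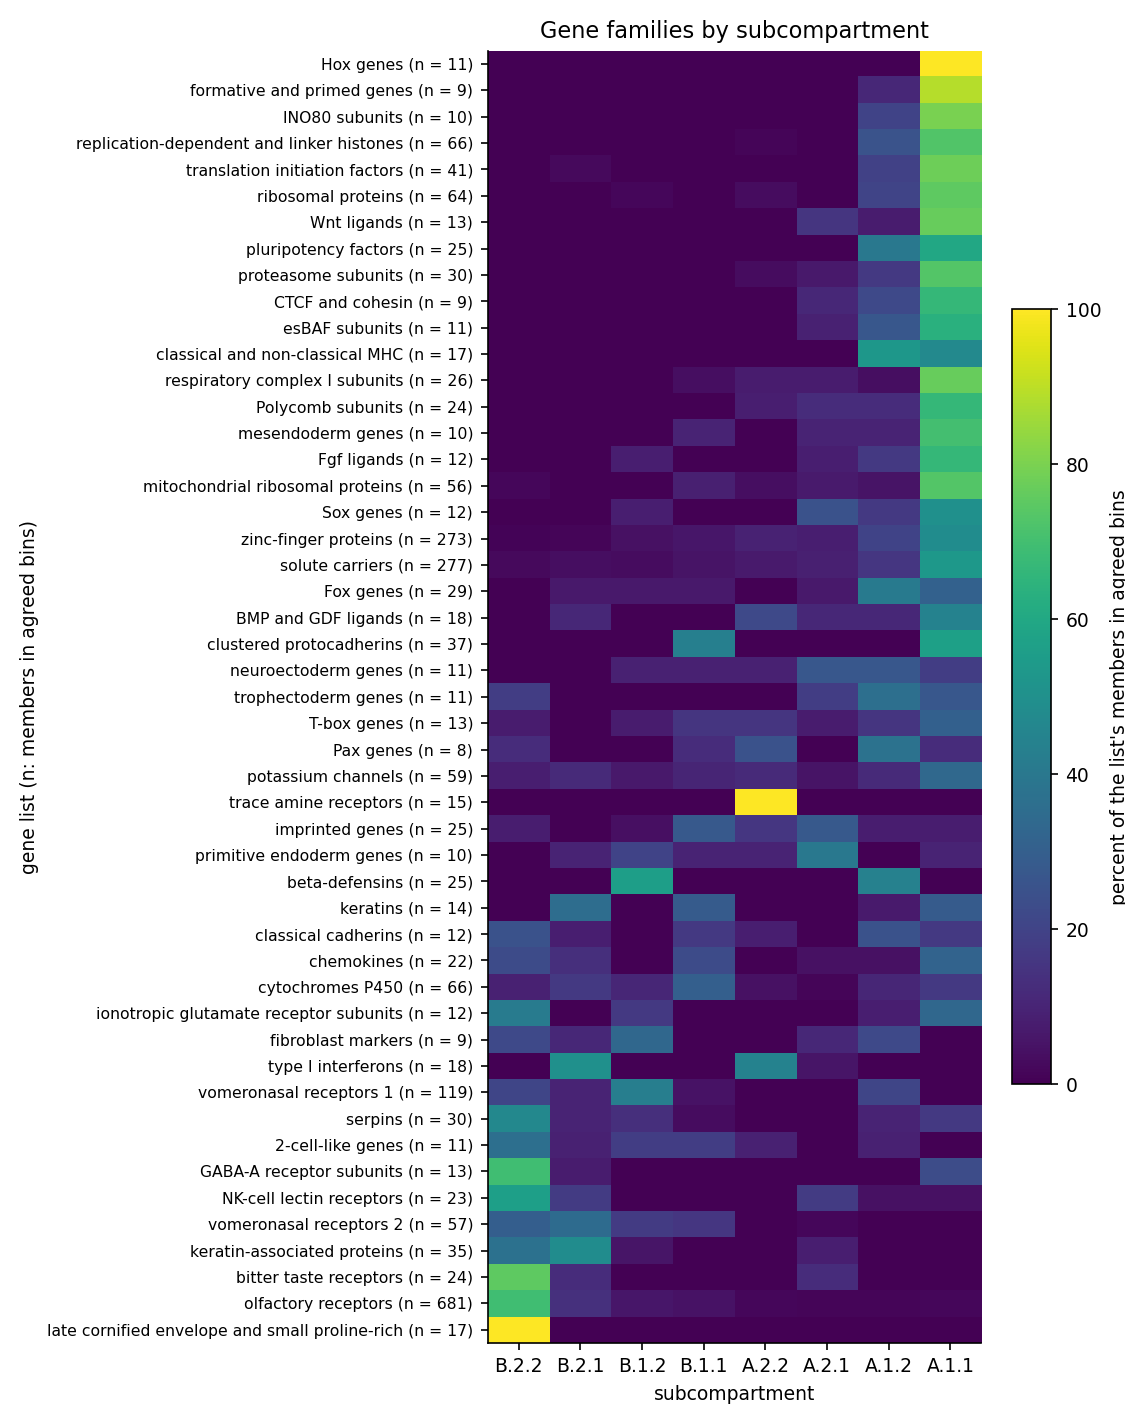
Share of each gene list's members in each of the 8 subcompartments, in percent of the members that lie in agreed bins; lists with 8 or more such members are shown, ordered by mean class. Pluripotency, chromatin and housekeeping lists fill the A.1 columns, sensory receptor and epidermal lists the B.2 columns, and some clustered families fall into a single column.

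Genes of other lineages and of development lay in A about as often as all genes or somewhat more. Of the 235 genes of the lineage and development lists, which include the pluripotency genes Sox2, Fgf4 and Tbx3, 157 were in agreed bins. Of these 132 (84.1%) were in A and 69 (43.9%) in A.1.1, against 76.4% and 47.6% of all genes. In each library alone 80.9% were in A, against 71.8% and 72.0% of all genes. All 39 Hox genes were in A in both libraries although only the 11 of the HoxA cluster on chromosome 6 had the same class, A.1.1, in both. The 9 HoxD genes on chromosome 2 were in A.2.1 in replicate 1 and in A.1.2 in replicate 2. The 9 HoxC genes on chromosome 15 were in A.1.2 in replicate 1 and A.1.1 in replicate 2, and so were 8 of the 10 HoxB genes on chromosome 11. Of the Wnt ligands all 13 in agreed bins were in A, 10 in A.1.1 (including Wnt1, Wnt10a and Wnt10b), with Wnt3 and Wnt9b lowest in A.2.1. In each library alone 16 of the 19 were in A, and Wnt2, Wnt5a and Wnt16 were in B in both with different classes. Mesendoderm genes were in A in 9 of 10 cases, with Evx1, Foxh1 and Mesp1 in A.1.1 and Cer1 in B.1.1. Neuroectoderm genes were in A in 9 of 11, and in 11 of 16 in each library alone, with Gbx2 and Nes in A.1.1. Of 10 primitive endoderm genes 6 were in A, from Gata4, a regulator of endoderm, in A.1.1 to Afp, alpha-fetoprotein, in B.2.1. Trophectoderm genes included Krt8, Krt18 and Tead4 in A.1.1 and the placental genes Prl3d1 and Tpbpa in B.2.2. Among developmental transcription factors in agreed bins Sox9 was the lowest Sox gene, in B.1.2, while Sox6 was lower but not agreed, in B.2.1 in replicate 1 and B.2.2 in replicate 2. By single library 12 and 13 of 18 Sox genes were in A. Tbx18 and Pax9 were in B.2.2, Foxi1 and Foxp2 in B.2.1 and Lmx1a in B.1.1. Fgf and BMP and GDF ligands were in A in 11 of 12 and 16 of 18 cases, with Fgf7 in B.1.2 and Bmp2 and Bmp3 in B.2.1. In each library alone 15 of 20 Fgf ligands were in A, and Fgf5, Fgf10, Fgf12 and Fgf14 were in B in both with different classes.

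Receptor families of neurons had members at both ends. Of all protein-coding genes in agreed bins 7.21% were in B.2.2 and 47.6% in A.1.1. GABA-A and ionotropic glutamate receptor subunits were above the first share and under the second. Of 13 GABA-A receptor subunits 9 were in B.2.2, including Gabra2, Gabra4 and Gabra6, and 3 were in A.1.1, Gabrd, Gabrr1 and Gabrr2. Ionotropic glutamate receptor subunits showed the same pattern, with 5 of 12 in B.2.2 (Gria1, Gria2 and Grik1 among them) and 4 in A.1.1 (Grik5, Grin1 and Grin2d among them). Classical cadherins had 3 of 12 in B.2.2, Cdh10, Cdh12 and Cdh20, and 2 in A.1.1, Cdh22 and Cdh24. Potassium channels were spread over all 8 classes, 20 of 59 of them in A.1.1. Solute carriers were in A in 236 of 277 cases (85.2%) and zinc-finger proteins in 237 of 273 (86.8%), not far above the 76.4% of all genes.

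Most families of sensory receptors lay in B. Of 1104 olfactory receptor genes 681 were in agreed bins, and of these 472 were in B.2.2 and 39 (5.73%) in A. By single library 95 (8.62%) and 88 (7.99%) of the 1102 with a label were in A. The exceptions in A.1.1 numbered 11, among them Olfr1359, Olfr1371 and Olfr15. Bitter taste receptors were in B.2.2 in 18 of 24 cases, and 3 were in A.2.1, Tas2r108, Tas2r137 and Tas2r144. All 15 trace amine receptors, a single cluster of 5 bins, were in A.2.2 in both libraries. Vomeronasal receptors of the second type were in B in 56 of 57 cases, the exception being Vmn2r62 in A.2.1. Those of the first type differed by chromosome and, on chromosome 7, by cluster. The 37 of chromosome 6 in agreed bins were in B.2.2 (25) or B.2.1 (12), and the 18 of chromosome 13 in B.1.2. On chromosome 7 there were 30 in B.1.2, 6 in B.1.1 and 24 in A.1.2. All 24 lay in the longest A.1.2 run described above, so they are a single locus. Some multicopy families had fewer members in agreed bins than the 72.7% of all genes, among them 681 of 1104 olfactory receptors, 119 of 230 and 57 of 122 vomeronasal receptors and 0 of 28 alpha-defensins. Others had more, with 18 of 18 type I interferons, 15 of 15 trace amine receptors and 66 of 68 histones. Reads from near-identical copies cannot be placed with certainty, and the part of this in the labels was not tested.

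Families of skin and immunity often had neighbouring members in the same class and separate clusters in different classes. All 17 genes of the late cornified envelope and small proline-rich families in agreed bins were in B.2.2, and of 35 keratin-associated genes 30 were in B.2.1 or B.2.2. Keratin genes were split by cluster and library. On chromosome 15, 18 genes were in A.2.2 in replicate 1 and A.2.1 in replicate 2, 4 in B.1.1 in both libraries and 2, Krt8 and Krt18, the keratins of simple epithelia, in A.1.1 in both. On chromosome 11, 11 keratin genes were in B.1.1 in replicate 1 and B.1.2 in replicate 2, 6 in B.2.1 in replicate 1 but A.2.2 in replicate 2, and 5 in B.2.1 in both. Type I interferon genes, all on chromosome 4, were in B.2.1 (9) or A.2.2 (8), with Ifnk in A.2.1. Beta-defensins were in A.1.2 on chromosome 2 (11) and in B.1.2 on chromosome 8 (14). The 28 alpha-defensins were in B.1.2 in replicate 1 and B.2.1 in replicate 2. Natural killer lectin receptors were in B.2.2 in 13 of 23 cases, chemokines in B.2.2 in 5 of 22 (Ccl2, Ccl11 and Ccl12 among them) and in A.1.1 in 7 (Ccl17, Ccl24 and Ccl26 among them). All 17 MHC genes in agreed bins were in A, but in each library alone 26 of the 35 with a label were, so the agreed bins leave out those in B. Cytochromes P450 and serpins, many of them liver genes, were in B in 44 of 66 and 22 of 30 cases.

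Imprinted genes lay mostly in the middle of the scale. Of 25 imprinted genes in agreed bins 7 were in B.1.1 and 7 in A.2.1, against 5.57% and 7.76% of all protein-coding genes. In A as a whole were 15 of the 25 (60%), against 76.4%. Of those in B.1.1, 5 were on chromosome 7, and of those in A.2.1, 3 were on chromosome 12. Neighbours in the same domain are not independent positions. Igf2 and H19, neighbours expressed from opposite alleles, were both in A.2.2, as were Igf2r and its antisense RNA Airn. Kcnq1 and Kcnq1ot1 were in B.1.1 while Cdkn1c and Phlda2 in the same imprinted domain were in A.1.2. Dlk1, Meg3 and Rtl1 were in A.2.1, and Ndn and Magel2 in B.2.2. Impact and Mcts2 were the 2 in A.1.1.

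MicroRNA clusters gave examples of placement by position. Embryonic stem cells are known for the miR-290 cluster and, as they leave the naive state, for the miR-302 cluster. The miR-302 cluster (chr3:127545228-127545807, 5 hairpins) was in A.1.2 in both libraries, and the miR-290 cluster (chr7:3218626-3220841) in A.2.1 in replicate 1 and A.1.2 in replicate 2. Mature members of both share a seed, and their RefSeq sequences are shown for that, with bases 2 to 8 in capitals.
miR-302b-3p: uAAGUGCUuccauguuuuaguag
miR-302d-3p: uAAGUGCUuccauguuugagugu
miR-291a-3p: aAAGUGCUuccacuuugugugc
miR-294-3p: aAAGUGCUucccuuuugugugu
miR-295-3p: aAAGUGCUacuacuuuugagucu
The miR-17 to miR-92 cluster (chr14:115043671-115044506, 6 hairpins), an oncogenic cluster, was in B.1.2 in both libraries. The imprinted microRNAs of chromosome 12 were split. The 14 hairpins from Mir770 to Mir136, next to Meg3, were in A.2.1 and the 36 from Mir379 to Mir3072 in B.1.1, in both libraries.

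Autosomes differed in their share of A. Chromosome 19 had the highest share in agreed bins, 51.8% (48.4% and 47.6% by library), then 11 with 48.7% (45.7% and 47.1%) and 17 with 48.0% (41.1% and 39.7%). The rank of chromosome 17 rests on agreed bins: in each single library several others, chromosomes 2 and 5 among them, were above it, and its libraries agreed in 62.8% of bins. The lowest were 18 with 34.8% (33.9% and 34.2%), 16 with 35.4% (35.0% and 34.5%) and 14 with 35.9% (35.5% and 35.3%). Over the 19 autosomes the A share of the 2 libraries correlated with Pearson's r = 0.914 and Spearman's rho = 0.842. The A share and gene density correlated with r = 0.708 and rho = 0.705 (n = 19, from the same libraries), given as a description. Agreement between libraries ranged from 59.5% of bins on chromosome 13 to 74.2% on chromosome 5. On chromosome 18 the clustered protocadherins, adhesion molecules of neurons, were split by subcluster, with 16 Pcdha genes in B.1.1 and 21 Pcdhg genes in A.1.1, including the labelled bin with the most gene midpoints, 17.

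Position along the chromosome went with class. Mouse autosomes have the centromere at one end, and with each chromosome cut into 10 equal parts from that end, A took up 32.4% of agreed bins in the first part and 57.2% in the last. B.2.2 was scarce at both ends, with 3.61% in the first part and 9.85% in the last, and reached 44.7% in the sixth. A.1.1 rose from 8.53% in the first part to 24.7% in the ninth and was 19.5% in the last. The share of A did not rise steadily, with 42.0% in the second part and 35.3% in the sixth.

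**Figure D3:**
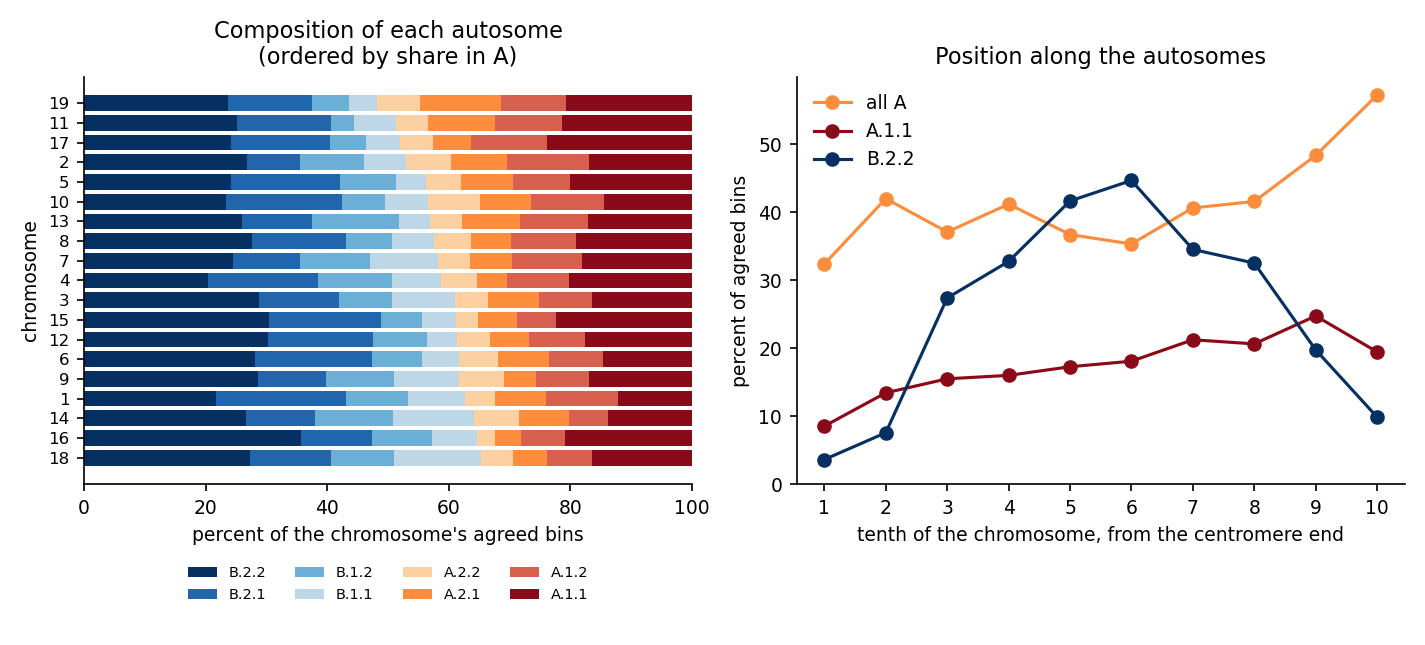
Left: share of each autosome's agreed bins in the 8 subcompartments, ordered from the highest share of A (chromosome 19) to the lowest (chromosome 18). Right: percent of agreed bins in A, A.1.1 and B.2.2 in 10 equal parts of the chromosome from the centromere end, over all 19 autosomes; B.2.2 peaks in the sixth part at 44.7%.

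The loop list of the control cells held 5903 loops, all within a chromosome, between anchors of 10 kb. Of these 5758 were autosomal and 145 on X. The loops ran from 70 to 1960 kb from anchor to anchor, with a median of 250 kb and quartiles of 150 and 450 kb, and 4.10% measured 1 Mb or more. The list gives no score or count per loop, and loops share anchors, so no interval is given for the shares below. Per Mb, chromosome 11 had the most loops (3.05) and chromosome 14 the fewest (1.73).

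Anchors were concentrated in A. The 9947 distinct autosomal anchors included 6756 in agreed bins, of which 68.8% were in A, against 41.3% of agreed bins, and the share was above that of the bins on 19 of 19 autosomes. Density rose from 1.32 and 1.30 anchors per Mb (replicate 1 and 2, by each library's own classes) in B.2.2 through 4.32 and 4.36 in B.1.1 to 7.33 and 7.23 in A.1.2, with 7.08 and 7.16 in A.1.1. Unlike gene density, anchor density did not rise from A.1.2 to A.1.1, although A.1.1 held 24.3 genes per Mb and A.1.2 held 14.1. Both anchors were in A for 66.4% of the 3047 loops with both anchors in agreed bins, both in B for 22.9%, and 10.7% joined A with B. By the labels of a single library, which leave out no loop for disagreement, both anchors were in A for 57.1% and 57.6% and A was joined with B in 14.5% and 15.3%.

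More than 50% of loops joined anchors of the same subcompartment. The anchors shared the class in 67.4% of loops in agreed bins, in 57.1% by replicate 1 and in 54.9% by replicate 2. They were at most 1 class apart in 82.5%. The median loop, 250 kb, is shorter than the median segment, 350 kb. Pairs of positions at the same distance without a loop were not counted, so whether loops exceed them was not tested. Loops within A.1.1 alone made up 852 of the 3047, those within A.1.2 made up 369 and those within B.2.2 made up 125. By the segments of replicate 1, 52.1% of loops lay inside a single segment, and by those of replicate 2, 49.6%. Anchors were near A/B borders more often than all 10 kb windows. The windows were not matched to the anchors by class, and the part of class in this was not tested. By replicate 1, 14.1% of anchors were within 50 kb of a border against 6.83% of all 10 kb windows, and by replicate 2, 14.7% against 7.07%.

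Loops in B were longer. Loops within A.1.1 and within A.1.2 had a median of 150 kb, those within B.1.1 of 210 kb and those within B.2.2 of 380 kb. Loops that joined A with B had a median of 400 kb, against 180 kb for A with A and 300 kb for B with B. Read by length, the share with both anchors in A fell from 84.1% of loops of 70 to 150 kb to 68.7% at 160 to 300 kb, 49.9% at 310 to 600 kb and 40.9% at 610 to 990 kb, and was 43.6% at 1000 kb or more. The same-class share went from 89.9% to 30.7% over the same lengths. Both libraries gave the decline in the share with both anchors in A, from 77.2% and 78.1% at 70 to 150 kb to 34.4% each at 1000 kb or more. The 34 loops of 1500 kb or more did not follow it, with 50% and 52.9% by library. The same-class share by length was not computed for each library.

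**Figure D4:**
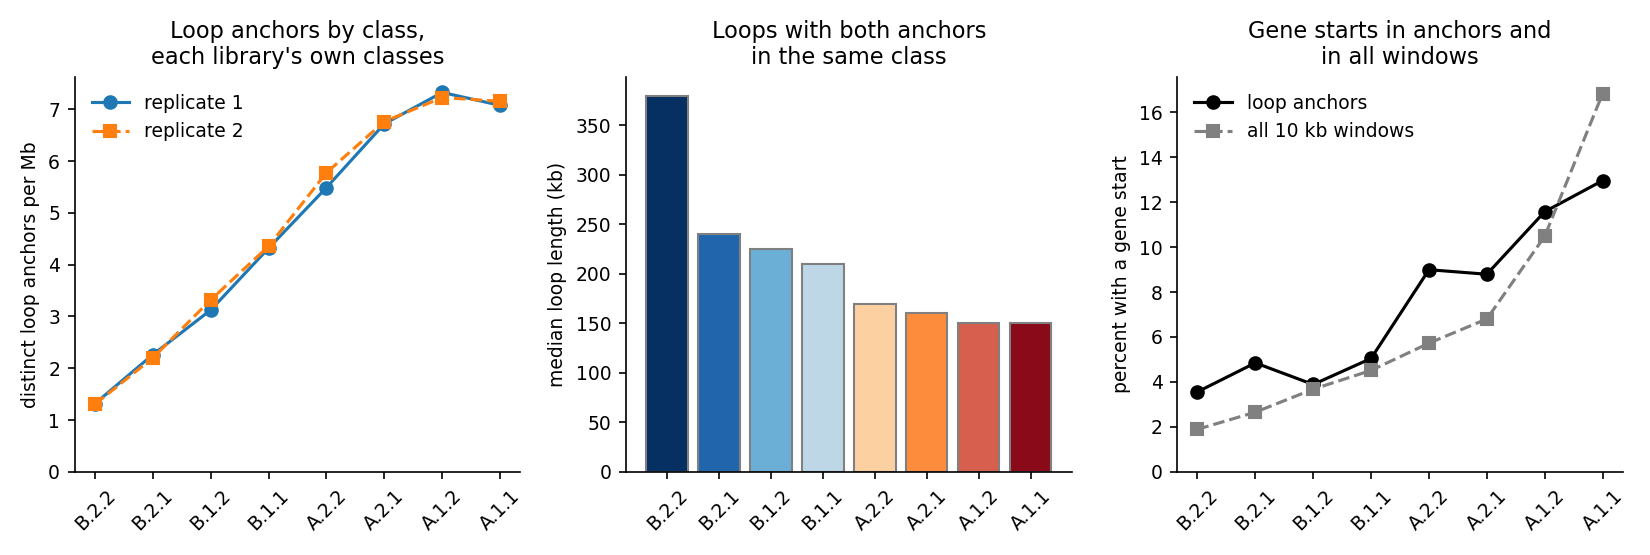
Left: distinct loop anchors per Mb in each subcompartment, by the labels of each control library. Middle: median length of loops with both anchors in the same class, in kb, from 380 kb in B.2.2 to 150 kb in A.1.1. Right: percent of anchors in agreed bins that hold the start of a protein-coding gene, beside all 10 kb windows of the same class; the anchors lie above the windows in the B classes, A.2.2, A.2.1 and A.1.2 and below them in A.1.1.

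Anchors in B held genes more often than other sequence of B, and anchors in A.1.1 held them less often than other sequence of A.1.1. A protein-coding gene body overlapped 56.4% of the 11806 anchor ends. Among distinct anchors in agreed bins it overlapped 58.9%, against 48.0% of all 10 kb windows, and a gene start lay in 9.18% against 6.49%. Within B the excess remained, with gene bodies in 46.1% of anchors against 33.2% of windows and gene starts in 4.37% against 2.73%. The excess of gene bodies in B as a whole was seen on 19 of 19 autosomes and that of gene starts on 14 of 19. B pools classes over which anchors and windows are spread differently. By class, gene bodies overlapped 38.9% of anchors against 25.7% of windows in B.2.2 and 53.2% against 47.2% in B.1.1. Gene starts lay in 3.56% against 1.89% in B.2.2 and 4.85% against 2.65% in B.2.1. They differed little in B.1.2 (3.89% against 3.68%) and B.1.1 (5.05% against 4.51%). In A the direction was reversed for gene bodies, which overlapped 64.8% of anchors against 69.0% of windows, and in A.1.2 62.6% against 68.3% (not higher on 16 of 19 autosomes). In A.1.1 it was reversed for gene starts too. Gene bodies overlapped 69.7% of its 2037 anchors against 77.1% of its windows, not higher on any of the 19 autosomes, and gene starts lay in 13.0% against 16.8%, not higher on 17 of 19. By single library the gene starts of A.1.1 were 12.8% against 16.4% and 12.9% against 16.1%. Strand, and so the start, was known for 16457 of 20665 autosomal genes. Of the 5758 autosomal loops, 96 had a gene start in both anchors, 874 in 1 and 4788 in neither.

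Lineage and developmental genes were the themes most often found at anchors. Of 164 genes of the lineage and development lists with a known start, 43 started in an anchor (26.2%), against 982 of 16457 genes (5.97%). Hox genes had 10 of 22 starts at an anchor, Pax genes 5 of 7, neuroectoderm genes 4 of 12 (Neurog2, Olig2, Pax6 and Sox1), LIM homeobox genes 3 of 11 (Lhx1, Lhx6 and Lhx9), T-box genes 3 of 11 (Eomes, Tbx1 and Tbx18), Wnt ligands 4 of 15 (Wnt1, Wnt11, Wnt7a and Wnt9a), and primitive endoderm genes 4 of 8 (Col4a1, Col4a2, Foxa2 and Pdgfra). The excess was not shared by every list of these themes. Of Fgf ligands 0 of 15 and of BMP and GDF ligands 0 of 12 started in an anchor. The lists overlap in part, and neighbours such as the Hox genes share anchors. Outside these themes 0 of 63 histone genes and 0 of 21 Polycomb genes started in an anchor. Of genes for ribosomal proteins 2 of 61 did (Rpl26 and Rpl7l1), and of olfactory receptors 13 of 938. By gene body the order was different, since genes of the neural lists, with a median length of 57.4 kb, overlapped an anchor in 43.1% of cases but started in one in 14.7%. Developmental and lineage genes overlapped an anchor in 101 of 235 cases (43.0%) with a median length of 7.95 kb, against 22.3% of all genes with a median length of 17.5 kb.

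**Figure D5:**
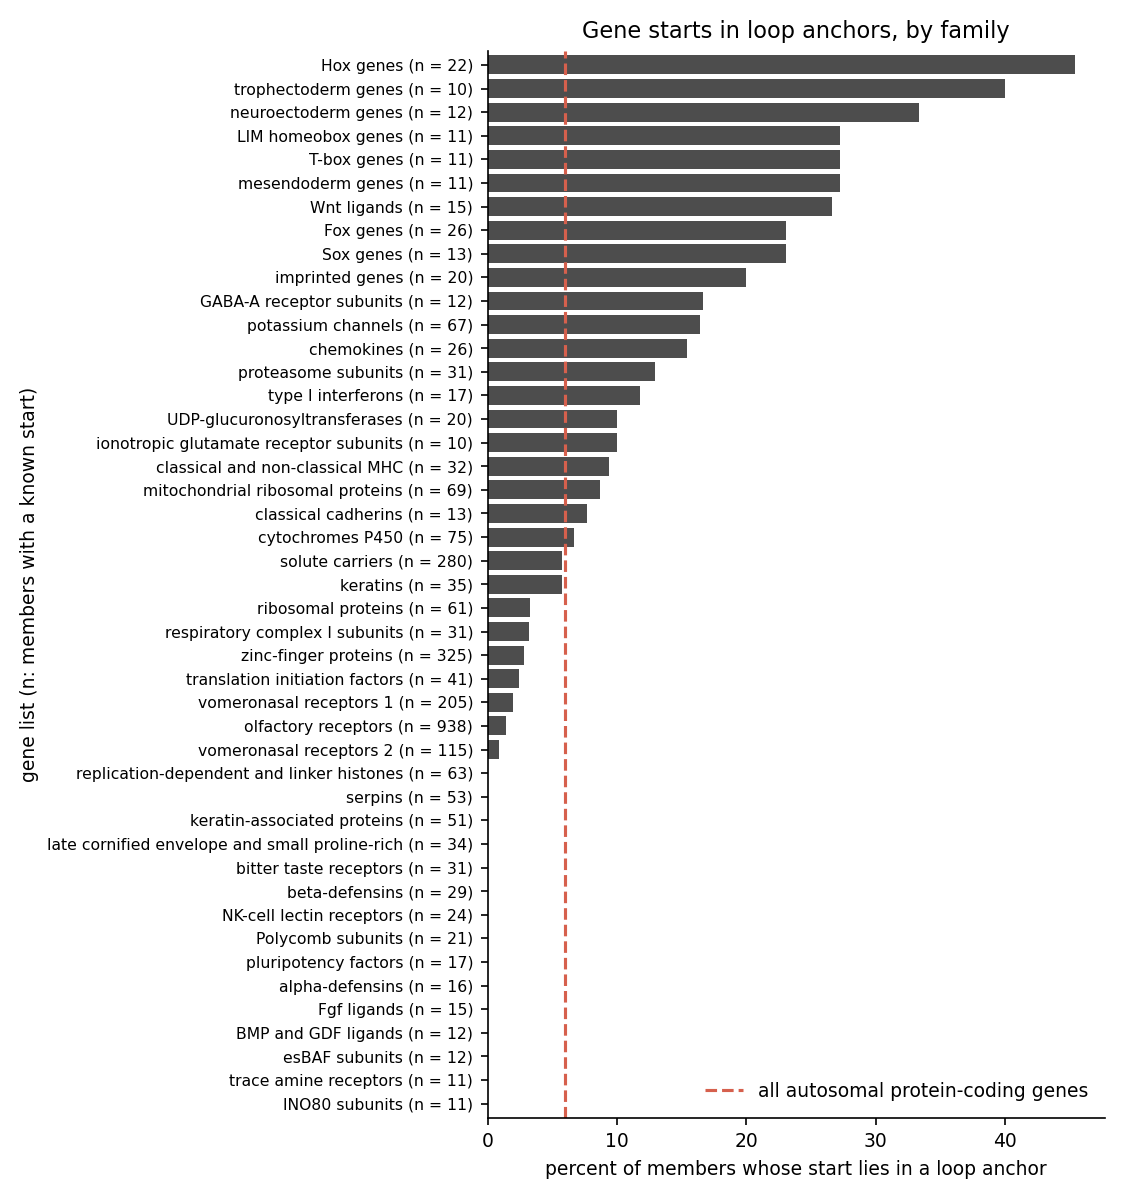
Percent of each gene list's members whose start lies in a control loop anchor, for lists with 10 or more members of known start; the dashed line is the value over all autosomal protein-coding genes, 5.97%. Hox, trophectoderm and neuroectoderm genes are at the top, and no histone, Polycomb or pluripotency gene starts in an anchor. No gene of the Fgf ligand or BMP and GDF ligand lists does either.

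Few pluripotency genes are available to set against loop anchors. None of the 17 with a known start began in an anchor, where 5.97% of all genes did, and the start of Sox2 at 34649995 lay just outside its anchor. With their body 3 of 26 (11.5%) overlapped an anchor, against 22.3% of all genes. Sox2 joined a loop of 100 kb from chr3:34650001-34660000 to chr3:34750001-34760000, both anchors in A.1.1, with no protein-coding gene between them; a distal control region downstream of Sox2 is known in embryonic stem cells. Sall4, a zinc-finger factor of pluripotency, joined a loop of 80 kb from chr2:168750001-168760000 to chr2:168830001-168840000, also within A.1.1. Tet2, which oxidises methylated cytosine, joined a loop of 1770 kb to an anchor in Cenpe, from chr3:133470001-133480000 to chr3:135240001-135250000, both in A.1.2.

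Some of the longest loops and busiest anchors lay at developmental genes, and others at no gene. A loop of 1960 kb on chromosome 5, tied as the longest, joined Nkx1-1 with Hmx1, both homeobox genes, from chr5:33430001-33440000 to chr5:35390001-35400000, and spanned 31 genes. The other of that length, on chromosome 4, joined anchors with no protein-coding gene across 12 genes, Zfp980 and Zfp987 among them. The next, 1950 kb on chromosome 2, joined Lrp2 with Dlx1, a homeobox gene of forebrain neurons, within A.1.1. The anchor with the most loops, 6, was at Sp9 (chr2:73270001-73280000, A.1.2 in both libraries), a zinc-finger factor of limb and forebrain. Its partners were anchors at Dlx1, 1740 kb away, at Hoxd11, Hoxd12 and Hoxd13, 1400 kb away, at Sp3 and Ola1, and 2 with no protein-coding gene. The anchors with 5 loops each were at Adamts9 (chr6:92780001-92790000, A.2.2), at Osr1, a transcription factor of kidney and limb development (chr12:9570001-9580000, B.2.1), and at chr12:80980001-80990000 (A.1.1) with no protein-coding gene. In all, 1364 anchors (13.7%) served 2 or more loops, and 53.7% of these held a gene body, against 57.7% of anchors in 1 loop. Loops linked by shared anchors formed 1005 groups of 3 or more anchors, the largest with 11 anchors. Such a group on chromosome 2 ran over 5100 kb from Lrp2 to the HoxD cluster, and another over 1830 kb held anchors at Pax1, Nkx2-2, Nkx2-4, Insm1 and Foxa2, in B.1.2 to A.2.1. Groups tied with them at 11 anchors lay on chromosomes 6 and 8. The first, over 2440 kb, held anchors at Cyp26b1, Dysf, Emx1, Exoc6b, Fbxo41, Pcgf1 and Tlx2. The other, over 1220 kb, held anchors at Dlc1 and Trmt9b only.

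Loops with a gene of the lineage and development lists at both anchors numbered 14, and 11 of them joined different genes. They were looked for after the longest loops had been seen. Among the longest were Lhx1 with Tbx4 (1370 kb) and Lhx1 with Tbx2 (1310 kb) on chromosome 11, Col4a1 and Col4a2 with Sox1 (1080 kb) on chromosome 8, Foxl2 with Sox14 (920 kb) on chromosome 9, Pax9 with Foxa1 (850 kb) on chromosome 12, Pax1 with Foxa2 (680 kb) on chromosome 2 and Tbx5 with Lhx5 (620 kb) on chromosome 5. Such genes were at an anchor in 9.54% of loops of 1000 kb or more, in 5.34% of loops of 610 to 990 kb and in 1.75% to 2.32% of the shorter classes. The anchor at Lhx1 was in A.2.2 in replicate 1 and A.2.1 in replicate 2, the anchor at Sox1 in A.2.1, and those at Pax1 and Foxa2 in B.1.1 and B.1.2 in both libraries. The anchor at Pax9 was in A.2.2 in both libraries, whereas the midpoint of the gene lay across a border in B.2.2.

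Other loops spanned many genes. The autosomal loops had a median of 1 protein-coding gene midpoint between the anchors, and 979 (17.0%) had none. The most, 84, lay in a loop of 1730 kb on chromosome 2 that joined Olfr1009, in B.2.2, with Olfr1126, in B.1.1, and so enclosed a cluster of olfactory receptors. A loop of 1710 kb on chromosome 3 joined Cct3 with Ubap2l in A.1.1 across 63 genes, inside the longest A.1.1 run. A loop of 910 kb on chromosome 11 started in Krt10 and spanned 59 genes, beginning with the keratin genes next to it. On X, 128 of 266 anchors (48.1%) overlapped a protein-coding gene, and no subcompartments are given for X.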

How the data were processed

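Of the 6 libraries of the series the 2 control libraries were used. The authors deposited, for each, segments named by subcompartment with a score from 0.125 (B.2.2) to 1 (A.1.1), which was read only as the rank of the class, and for the group a list of loop positions. Per the submitters' processing notes BWA, SAMtools, Juicer 2.0, HOMER, bedtools and the build mm10 were used, with no role given; the callers and thresholds are not given in the sources used here. Labels were read on a 50 kb grid. Protein-coding genes were taken from RefSeq (GRCm38.p6) and placed by their midpoint; 16457 of 20665 autosomal ones had a start and promoter. An anchor took the label of the bin that holds it. Values were computed in Python 3.11.15 with pandas 2.3.3 and numpy 2.4.6, in agreed bins and in each library. The binning, the finding of disagreeing bins and the placement of positions were tested on simulated data, and the other steps were not. With 1 group of 2 libraries no test was run. The members and the 52 gene lists were chosen with earlier results of these data known. Of each list up to 3 members in its highest and lowest class are named in order of name, with all pluripotency genes; for each class the longest agreed run; and the 3 longest loops, the 3 that span the most genes and the anchors with the most loops. Other genes named, and the loops between developmental genes, were picked after their values were seen. Alternatives changed the bin size, the placement of genes, the treatment of borders and the library.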

Additional observations from a re-analysis of the deposited data

How the results depend on the processing

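By either control library alone the share of bins in A was 39.5% to 39.7%, the density ratio of A.1.1 to B.2.2 was 8.59 to 8.88, the share of loops with both anchors in A was 57.1% to 57.6% and the share within a class was 54.9% to 57.1%. All are below the values from agreed bins (41.3%, 9.78, 66.4% and 67.4%). The A share was 39.3% in agreed bins that touch no segment border. The density ratio was 5.28 with genes counted in every bin they overlap, 18.8 without olfactory and vomeronasal receptors and 4.84 for genes of any type. The median segment was 300 kb in runs of agreed bins. Both anchors were in A for 60.1% of loops whose anchors had the same letter in both libraries, and 82.5% of loops joined anchors at most 1 class apart. Anchors held a gene start in 14.2% of cases, counting either end of genes with no known strand, and a gene body in 69.4% when widened by 10 kb on each side. The A share with bins of 100 kb (41.2%) moved by less than the spread between the libraries. So did the density ratio with genes placed by their start (9.97). Other values were not recomputed under these settings. Distinct anchors held a gene body in 56.9% of cases, against 56.4% of anchor ends. With 1 loop list there is no spread between libraries to set beside that difference. A limit of 2 Mb on loops and the joining of adjacent segments of the same label changed nothing by construction, since no loop was that long and no such segments were adjacent. Chromosomes 19 and 18 were highest and lowest in each library alone. No paired analysis was possible because 1 group was described and no test was run. Depth is unknown, the loop list gives no strength per loop, and the spread rests on 2 libraries in different batches.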
